A study of Mus musculus with 50 samples.

Results

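The type I interferon response genes described here are 35 mouse genes, chosen by name from 48526 genes in the count table, that cells switch on after interferon-alpha or interferon-beta binds its receptor. They cover the IFIT and OAS families, the ubiquitin-like modifier Isg15 and its protease Usp18, the factors Irf7, Irf9 and Stat2, the Mx and Schlafen families, the RNA sensors Ddx58, Ifih1 and Dhx58, and antiviral membrane proteins such as Bst2 and Ifitm3. They were followed in RNA-seq libraries of microglia, the resident macrophages of the brain, sorted by FACS from mice whose histone deacetylase genes Hdac1 and Hdac2 carry loxP sites on both alleles.

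In the constitutive model the knockout mice carried CX3CR1-Cre and the control mice carried no Cre. In the inducible model the knockout mice carried CX3CR1-CreERT2, which needs tamoxifen, and the control mice carried no Cre; the dams of both groups received tamoxifen at embryonic day 13. Every mouse, controls included, was HDAC1/2-loxP/loxP. The constitutive model held knockout and control libraries at birth (P0; n = 3 and 4), 2 weeks (14 days; n = 2 and 4) and 6 weeks (45 days; n = 3 and 4). The inducible model held them at embryonic day 16 (E16; n = 3 and 4), P0 (n = 4 and 3), 2 weeks (n = 4 and 4) and 6 weeks (n = 4 and 4), which makes 50 libraries in 14 groups. Cx3cr1 is also active in monocytes and border macrophages, so both drivers can act outside microglia. Because no control mouse carried Cre, an effect of the deletion and an effect of carrying the Cre allele cannot be told apart.

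Type I interferons bind the receptor pair Ifnar1 and Ifnar2, whose kinases Jak1 and Tyk2 phosphorylate STAT proteins, Stat2 among them. With Irf9 these form a complex that binds interferon-stimulated response elements in the promoters of the responding genes. Irf7, itself induced, amplifies interferon production, and Usp18 damps signalling at the receptor. In mouse brain, microglia with a high level of these genes are known from development, viral infection and ageing.

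The core letters of the response element were searched in the 250 bases before the start of each gene, in RefSeq promoters of build GRCm38.p6. The motif searched was GAAA, then any 2 bases, then GAAA, on either strand and with overlapping matches included; on the opposite strand it reads TTTC, any 2 bases, TTTC. Of the 35 genes, 26 had a promoter in the table, and 12 of these (46.2%) held the motif, against 3.46% of 27025 genes. A match describes the letters of this window only. Windows of 6 members are shown, each with 20 bases on either side of the matches, cut at the gene's start for Oas1a, and the matches in capitals. The first 5 belong to genes that rose in constitutive knockout microglia at 2 weeks, and the last, Slfn8, holds the motif but was not called at that age. They lie at chr19:34640765-34640833 (plus strand) for Ifit1, chr19:34583353-34583436 (plus) for Ifit3, chr4:156200855-156200916 (minus) for Isg15, chr5:120907526-120907565 (minus) for Oas1a, chr8:71537567-71537622 (minus) for Bst2 and chr11:83020829-83020878 (minus) for Slfn8.
Ifit1: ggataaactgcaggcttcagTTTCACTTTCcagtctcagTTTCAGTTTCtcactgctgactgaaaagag
Ifit3: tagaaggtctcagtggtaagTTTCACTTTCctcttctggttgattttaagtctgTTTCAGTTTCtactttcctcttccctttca
Isg15: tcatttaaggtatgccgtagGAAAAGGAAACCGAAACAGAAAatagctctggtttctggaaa
Oas1a: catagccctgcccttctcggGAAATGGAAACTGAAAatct
Bst2: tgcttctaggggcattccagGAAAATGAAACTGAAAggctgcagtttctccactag
Slfn8: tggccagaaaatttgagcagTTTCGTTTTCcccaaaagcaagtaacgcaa

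Ifit1, Ifit3, Oas1a and Bst2 hold 2 matches each, Isg15 holds 3 that overlap, and Slfn8 holds 1. The window of Ifit3b, the neighbouring copy of Ifit3, at chr19:34607749-34607832 (plus strand) was the same as that of Ifit3 in 84 of 84 bases. The remaining members with a match were Stat2, Oas3, Rsad2, Slfn5 and Trim30a. No match was found in Ifit2, Irf7, Irf9, Oasl1, Oasl2, Ddx58, Ifih1, Xaf1, Slfn2, Ifitm3, Cmpk2 and Ifi35, nor in Herc6 and Ifi44. All of these without a match also rose in constitutive knockout microglia at 2 weeks, except Herc6 (not called) and Ifi44 (not tested). Mx1, Mx2, Oas2, Usp18, Ifi27l2a, Dhx58, Rtp4, Parp14 and Zbp1 had no entry in the promoter table. In the GENCODE vM21 annotation of GRCm38 all members are protein-coding except Mx2, which is a polymorphic pseudogene there, and several stand side by side: Ifit2, Ifit3, Ifit3b and Ifit1 between 34550694 and 34650009 on chromosome 19, and Slfn5, Slfn8 and Slfn2 between 82951349 and 83070678 on chromosome 11. Reads of the near-identical pairs Ifit3 and Ifit3b, Oas1a and Oas1g, Slfn8 and Slfn9, and Mx1 and Mx2 may be split between the copies. The kit kept no strand, and Ifi35, Rtp4, Herc6 and Slfn5 share 16.8%, 13.9%, 13.7% and 8.84% of their exon bases with other genes, so part of their reads may come from those.

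The libraries held 11050277 to 29651179 counted reads. Microglial marker genes were high in all control groups, but constitutive knockout libraries at P0 held much less of them. There the 13 microglial markers summed to 1653 to 4934 CPM (a gene's count over the library total, scaled to a common total), against 24796 to 28395 CPM in controls, while 11 neutrophil markers summed to 7420 to 11229 CPM against 786.5 to 1696 CPM. At 2 weeks the microglial sums were 26727 CPM in knockout mouse No_80 and 17184 CPM in knockout mouse No_89, against 71882 to 80804 CPM in controls, and the neutrophil sums were 17907 and 50621 CPM in those knockout mice, against 457.2 to 1143 CPM. At 6 weeks the knockout libraries held 38785 to 55441 CPM of microglial and 2647 to 5371 CPM of neutrophil markers, against 69846 to 73280 and 897.4 to 1302 CPM in controls. In these bulk samples fewer cells of a type and less RNA per cell cannot be told apart. Counts over a whole gene include exons outside a deleted part, so they check the labels only in part. Hdac2 fell in the inducible knockout at P0, 2 weeks and 6 weeks (log2 change -1.19, -1.42 and -1.28) and in the constitutive knockout at 6 weeks (-1.28). In 6 libraries labelled knockout at least 1 of the pair was within or above the range of the controls. Hdac1 stood at 35.7 CPM in the library labelled constitutive knockout mouse No_68 at P0 (11.4 to 13.6 CPM in controls) and at 92.2 CPM in the library labelled constitutive knockout mouse No_380 at 6 weeks (13.4 to 16.6 CPM), and Hdac2 stood at 70.1 CPM in the library labelled constitutive knockout mouse No_89 at 2 weeks (59.8 to 71.3 CPM) and at 316 CPM in the library labelled inducible knockout mouse No_1 at E16 (133 to 165 CPM). Hdac2 stood at 190 CPM in the same library of mouse No_68 and at 137 CPM in the library labelled constitutive knockout mouse No_76 at P0 (126 to 164 CPM in controls), and Hdac1 at 13.5 CPM in the library labelled inducible knockout mouse No_6 at 6 weeks (12.8 to 18.9 CPM). Counts of members without each library are given as ranges at the end, and beside the result for many that differ by over 1.5 times.

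Over all 35 genes the summed level set the constitutive knockout at 2 weeks apart. It was 1663 and 1906 CPM in the 2 knockout libraries, against 611.1, 597.7, 534.4 and 609.3 CPM in the controls, so the lower knockout library held more than any control. At 6 weeks it was 1038, 1491 and 1040 CPM in knockout mice, against 665.6, 660.3, 749.7 and 722 CPM in controls, with the highest knockout value in the library labelled mouse No_380. At P0 the order was not the same: 910.6, 627.9 and 917.1 CPM in knockout mice, against 989.6, 805.5, 1031 and 1008 CPM in controls, and the groups overlapped. In the inducible model the groups overlapped at each age. The sums were 626.1 to 1131 CPM in E16 knockout mice against 728.1 to 1603 CPM in controls, 1364 to 1852 CPM at P0 against 1121 to 1840 CPM, 567.3 to 700.4 CPM at 2 weeks against 602.9 to 691 CPM, and 695.8 to 997.2 CPM at 6 weeks against 854.8 to 918 CPM.

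**Figure D1:**
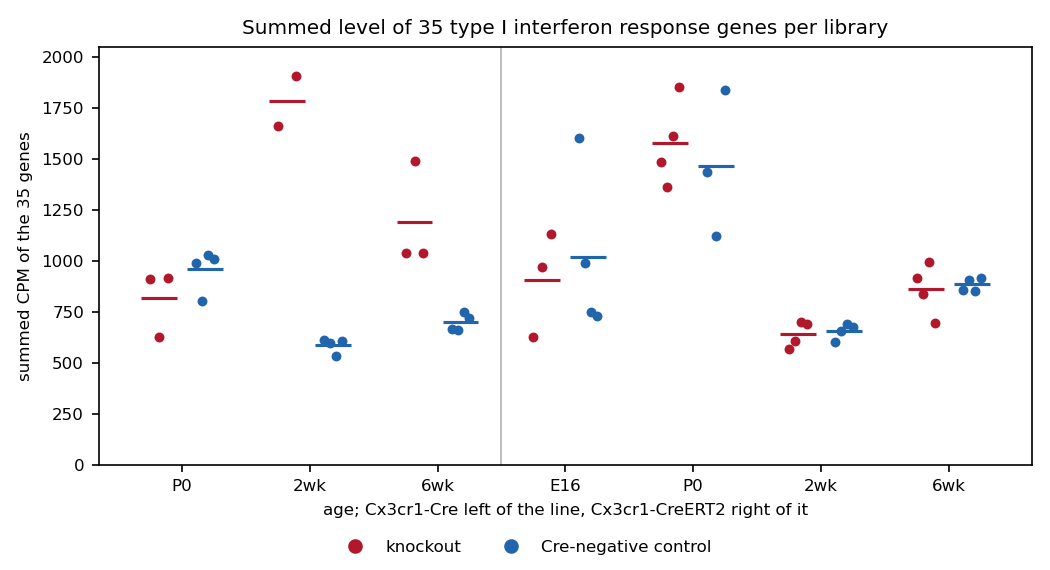
Summed level of the 35 genes (CPM, linear axis) in each library, by model and age, with each knockout group left of its controls; points are libraries and lines are group means. The constitutive knockout libraries at 2 weeks (1663 and 1906 CPM) and 6 weeks (1038 to 1491 CPM) lie above all controls of their age, and the other groups overlap.

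The sum rests on a few abundant members. On a scale of CPM per kilobase of the length in the files, Bst2, the membrane tether that holds budding virus on the cell (also called tetherin), led in constitutive knockout microglia at 2 weeks with 272.7, followed by Ifitm3, an inhibitor of virus entry, with 266.5, Slfn2, a Schlafen gene, with 205.9, and Ifi27l2a, a small interferon-induced protein, with 198.9. In their controls Bst2 led with 51.85, followed by Slfn2 with 23.54 and Slfn8 with 19.7, and neither Ifitm3 nor Ifi27l2a was among the highest 5. Bst2 also led per kilobase in the controls at P0 and 6 weeks (105.5 and 62.54), and in the inducible controls at P0, 2 weeks and 6 weeks (162.6, 42.88 and 69.97). In inducible knockout microglia at P0, Ifi27l2a (276.7) stood above Bst2 (252.9).

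In constitutive knockout microglia at P0, 16 of 35 members fell and 2 rose by edgeR's quasi-likelihood test at an adjusted p below 0.05, where 20.2% of all genes tested fell and 21.4% rose. The median log2 change was -0.66 over the members and 0.04 over all genes tested. The fall included Irf9, the DNA-binding part of the complex with Stat2, and Stat2 itself, with the RNA sensors Ifih1 and Dhx58 and the antiviral genes Ifit3, Mx1 and Mx2. The 2 that rose were Oas3, a large 2'-5'-oligoadenylate synthetase, and Cmpk2, a mitochondrial nucleotide kinase. Besides microglial and neutrophil markers, monocyte markers differed (1085 to 1485 CPM in knockout mice against 190.7 to 297.9 CPM in controls). So did neuronal (3065 to 3762 against 849.1 to 1853 CPM) and erythroid markers (2188 to 2922 against 587.3 to 1072 CPM). Vascular (225.8 to 280.1 against 86.51 to 122.4 CPM) and plasmacytoid dendritic markers (794.2 to 962.5 against 360.7 to 564.7 CPM) were higher too. Their part was not tested.

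Irf9 was at 44.1, 27.0 and 42.0 CPM in knockout mice at P0, against 91.7, 62.7, 93.4 and 80.5 CPM in controls, and fell by 1.48 ± 0.22 on the log2 scale (SE; adjusted p = 0.000456). Parp14, an ADP-ribosyltransferase, was at 21.4, 14.9 and 15.1 CPM in knockout mice, against 50.6, 52.4, 46.4 and 53.6 CPM in controls (log2 change -1.92 ± 0.18, adjusted p = 2.78e-05). Slfn8 was at 19.1, 12.6 and 15.0 CPM in knockout mice, against 61.4, 43.0, 46.2 and 43.4 CPM in controls (log2 change -2.0 ± 0.22, adjusted p = 6.2e-05). All 3 knockout libraries lay below all 4 controls for each of these genes. Such separation below the controls was seen in 15 of 35 members and in 13% of all genes tested. Mx2 was at 1.53, 1.29 and 1.36 CPM in knockout mice, against 6.87, 5.92, 8.84 and 12.8 CPM in controls (log2 change -2.97 ± 0.37, adjusted p = 0.000131). Ifih1, the sensor MDA5 of long double-stranded RNA, was at 7.65, 8.18 and 9.45 CPM in knockout mice, against 28.4, 17.4, 20.1 and 30.2 CPM in controls (log2 change -1.87 ± 0.26, adjusted p = 0.000233). Ifit3, which works in a complex that captures foreign RNA, was at 4.0, 1.36 and 2.13 CPM in knockout mice, against 8.67, 7.75, 5.50 and 8.44 CPM in controls (log2 change -1.94 ± 0.40, adjusted p = 0.00269). These groups did not overlap either. Herc6, the main ligase for Isg15 in the mouse, fell by 1.74 ± 0.23, Ifi35 by 1.37 ± 0.23 and Xaf1, a pro-apoptotic factor, by 1.56 ± 0.29 on the log2 scale.

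Oas3 was at 15.1, 9.07 and 16.1 CPM in knockout mice at P0, against 1.74, 1.83, 1.97 and 5.31 CPM in controls (log2 change 1.97 ± 0.42, adjusted p = 0.00346). Cmpk2 was at 18.6, 17.6 and 22.9 CPM in knockout mice, against 7.08, 10.2, 3.58 and 7.40 CPM in controls (log2 change 1.14 ± 0.30, adjusted p = 0.0107). Both genes were higher in each knockout library than in any control. Such separation above the controls was seen in 4 of 35 members and in 39.1% of all genes tested. Bst2 fell by 0.73 ± 0.17, Usp18 by 0.85 ± 0.25 and Stat2 by 0.56 ± 0.15 on the log2 scale. The groups overlapped for Stat2, at 33.7 to 48.9 CPM in knockout mice against 45.5 to 52.2 CPM in controls. Isg15, at 3.35, 2.59 and 3.66 CPM in knockout mice against 4.09, 3.53, 5.02 and 4.18 CPM in controls, was not called (log2 change -0.75 ± 0.32, adjusted p = 0.0834). Nor were Irf7 (-0.04 ± 0.40), Ifit1 (-0.66 ± 0.51), Oasl2 (-0.61 ± 0.34), Ifi27l2a (0.29 ± 0.30) and Ifitm3 (0.65 ± 0.26, adjusted p = 0.0661). TMM scaling sets these changes lower than the plain CPM does: Slfn2 averaged 178.2 CPM in knockout and 121.4 CPM in control mice, with a log2 change of 0.19 ± 0.20. In a fit of all 14 groups the median of all genes moved to 0.27 and that of the members was -0.45. That fit called 12 members lower and 1, Cmpk2, higher. It no longer called Bst2, Rtp4, Stat2 and Usp18 lower, nor Oas3 higher. Without the library labelled mouse No_68, 16 members fell and 2 rose (Usp18 was lost and Ifit2 gained among those that fell); without mouse No_76 a single member rose.

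At 2 weeks the direction was the other one. Of 34 members tested in constitutive knockout microglia, 30 rose and none fell by edgeR (0 fell by DESeq2, and 0 at an unadjusted p below 0.05), where 24.4% of all genes rose and 17.8% fell. The median log2 change was 2.16 over the members and 0.00 over all genes. Ifitm3, Zbp1, Cmpk2, Ifi27l2a, Oas2 and Slfn5 rose by more than 4 on the log2 scale, and Irf9 and Stat2, factors of the response complex, by less than 1. Mx2, Slfn8, Herc6 and Parp14 were not called, with log2 changes between -0.27 and 0.24. Ifi44 passed no filter on low counts at this age.

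Ifitm3 was at 114 and 248 CPM in knockout mice at 2 weeks, against 1.88, 2.19, 3.95 and 2.52 CPM in controls (log2 change 6.14 ± 0.44, adjusted p = 8.77e-05). Ifi27l2a was at 108 and 76.3 CPM in knockout mice, against 4.22, 4.55, 1.76 and 4.79 CPM in controls (log2 change 4.58 ± 0.30, adjusted p = 1.07e-05). Bst2 was at 190 and 226 CPM in knockout mice, against 42.8, 37.6, 34.9 and 43.1 CPM in controls (log2 change 2.40 ± 0.15, adjusted p = 4.15e-06). The lower knockout library stood well above the highest control for each. Of all genes tested at 2 weeks, 31.5% had both knockout libraries above every control, and 25.4% had both below. Zbp1, a sensor of nucleic acids in the Z form that can start cell death, was at 21.3 and 25 CPM in knockout mice, against 0.814, 0.691, 0.628 and 0.894 CPM in controls (log2 change 4.94 ± 0.27, adjusted p = 2.56e-06). Oas2 was at 36.2 and 25.1 CPM in knockout mice, against 0.661, 2.07, 2.07 and 0.731 CPM in controls (log2 change 4.43 ± 0.42, adjusted p = 6.44e-05). Oas1a was at 22 and 13.8 CPM in knockout mice, against 1.37, 0.806, 0.690 and 2.03 CPM in controls (log2 change 3.87 ± 0.38, adjusted p = 5.8e-05). OAS enzymes make the messenger that activates RNase L, which cleaves viral and cellular RNA. Oasl2, an OAS-like protein, was at 39.7 and 23.0 CPM in knockout mice, against 2.69, 2.99, 4.90 and 4.39 CPM in controls (log2 change 3.04 ± 0.29, adjusted p = 4.68e-05). Dhx58, a regulator of the RNA sensors, was at 42.5 and 39.4 CPM in knockout mice, against 12.6, 12.7, 15.4 and 12.8 CPM in controls (log2 change 1.61 ± 0.16, adjusted p = 7.07e-05).

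Irf7 was at 20.4 and 38.4 CPM in knockout mice at 2 weeks, against 2.03, 6.45, 3.14 and 3.66 CPM in controls (log2 change 2.97 ± 0.44, adjusted p = 0.000959). Isg15 was at 4.75 and 5.88 CPM in knockout mice, against 1.58, 0.576, 0.941 and 0.894 CPM in controls (log2 change 2.41 ± 0.43, adjusted p = 0.00163). Ifit1 was at 9.66 and 6.55 CPM in knockout mice, against 2.59, 1.09, 1.07 and 2.36 CPM in controls (log2 change 2.17 ± 0.41, adjusted p = 0.00229). The groups did not overlap for these genes, and Ifit3 likewise stood at 10.1 and 9.82 CPM in knockout mice, against 2.95, 1.73, 1.88 and 1.79 CPM in controls (log2 change 2.24 ± 0.31, adjusted p = 0.00039). Usp18 rose by 1.73 ± 0.24, Irf9 by 0.68 ± 0.12 and Stat2 by 0.45 ± 0.14 on the log2 scale. Stat2 was at 58.0 and 57.7 CPM in knockout mice, against 42.4, 45.4, 37.3 and 44.9 CPM in controls. Slfn8, whose promoter letters are shown above, was at 87.3 and 60.7 CPM in knockout mice, against 82.9, 78.2, 75.1 and 86.2 CPM in controls, and the groups overlapped (log2 change -0.14 ± 0.13, adjusted p = 0.426). Oas3 had 0, 14, 0 and 0 counts in the 4 controls, so its fitted change of 5.6 ± 1.15 depends on the prior count and gives no bound.

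**Figure D2:**
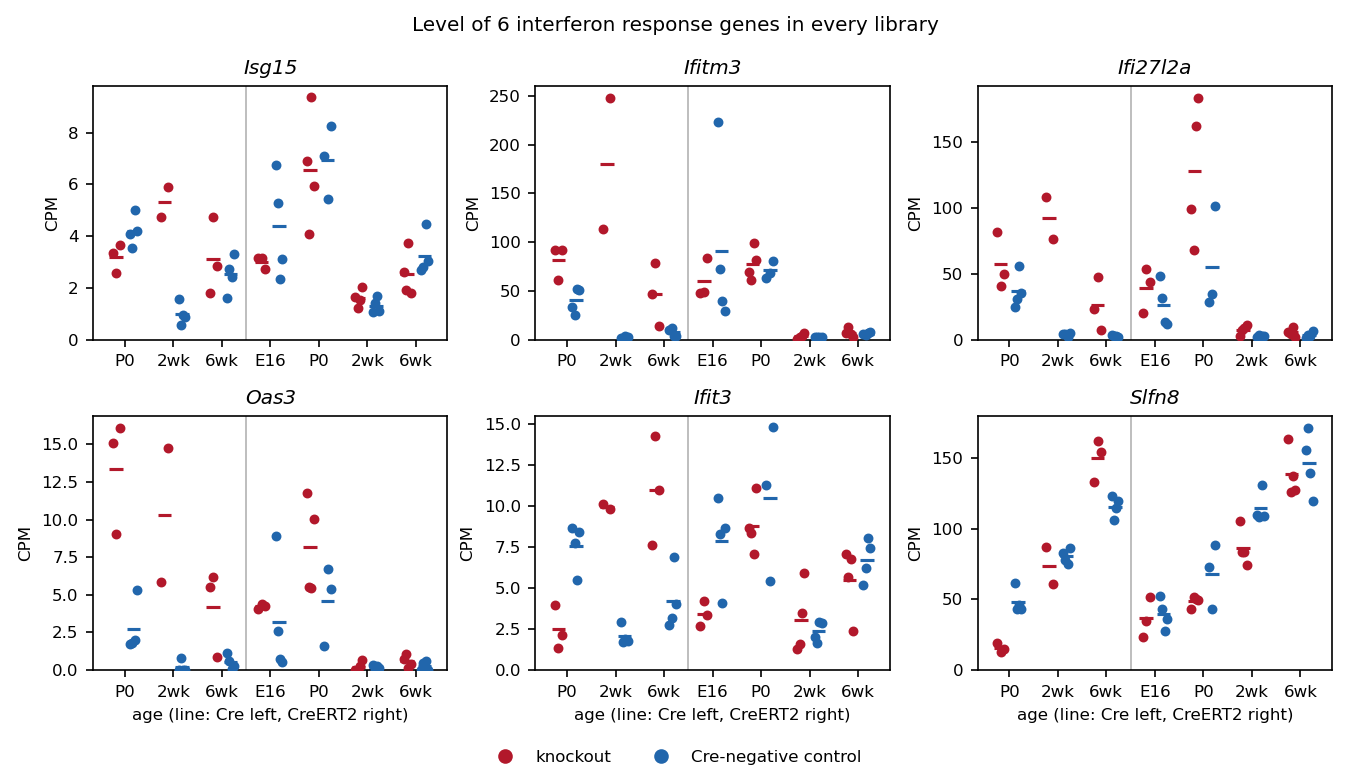
CPM per library (linear axes) of Isg15, Ifitm3, Ifi27l2a, Oas3, Ifit3 and Slfn8 in all groups, each knockout group left of its controls; points are libraries and lines group means. In the constitutive model at 2 weeks the first 5 genes are higher in both knockout libraries than in any control, and Slfn8 overlaps (87.3 and 60.7 CPM against 75.1 to 86.2 CPM). Of all genes tested there, 31.5% are higher in the same way.

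The 2 knockout libraries at 2 weeks differ in their marker levels, so the count was taken without each; the remaining knockout library is then assumed to vary like the controls. Without the library labelled mouse No_89, 23 members rose, with a median log2 change of 1.93, and Ddx58, Ifih1, Ifit3b, Oas3, Oasl1, Rsad2 and Stat2 were no longer called. Without mouse No_80, 27 rose and Herc6 fell. The neutrophil marker sum was 17907 CPM in knockout mouse No_80 and 50621 CPM in the library labelled mouse No_89, against 457.2 to 1143 CPM in controls. Of the 11 neutrophil markers 10 rose and 1 fell in the knockout at 2 weeks. The monocyte marker sum was 2043 and 4599 CPM in those knockout mice, against 19.22 to 70.36 CPM in controls, and 8 of 8 rose. The border macrophage sum was 3444 and 3047 CPM in them, against 584.3 to 805.9 CPM in controls, and 7 of 8 rose. The sum of markers of plasmacytoid dendritic cells, the blood cells best known for making interferon-alpha, was 235 and 145.6 CPM, against 236.6 to 283.3 CPM in controls. This sum is no count of those cells. It was 816.6 CPM in the library labelled inducible knockout mouse No_1 at E16, which held 3415 CPM of neuronal markers. The part of neutrophils, monocytes, border macrophages and plasmacytoid dendritic cells in the rise of the interferon genes was not tested. In the library labelled inducible knockout mouse No_6 at 6 weeks, the neutrophil sum was 8746 CPM and the monocyte sum 546.8 CPM. Both lay below those of the 2 constitutive knockout libraries. Its member sum was 840.5 CPM, against 854.8 to 918 CPM in its controls. Inducible-model control mouse No_2 at E16 held 7079 CPM of neutrophil and 2045 CPM of monocyte markers. The member sum of that control was 1603 CPM, the highest of its age. What these single libraries mean for the rise was not tested.

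**Figure D3:**
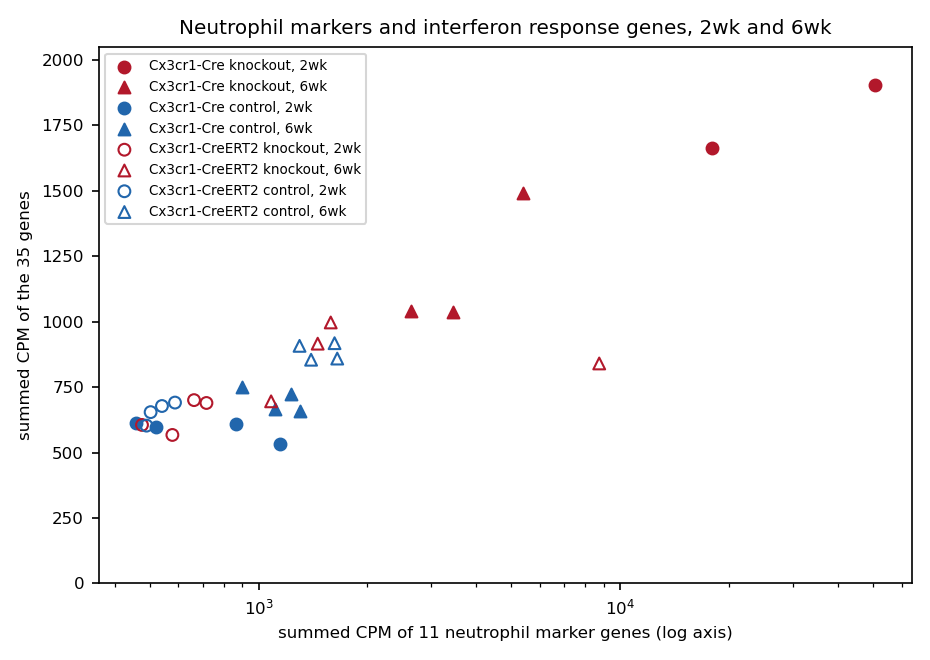
Summed level of 11 neutrophil markers (CPM, log axis) against the summed level of the 35 interferon response genes (CPM, linear axis) in the libraries of 2 and 6 weeks; each point is a library. The constitutive knockout libraries of 2 weeks hold most of both (neutrophil sums of 17907 and 50621 CPM, member sums of 1663 and 1906 CPM), and inducible knockout mouse No_6 at 6 weeks has a neutrophil sum of 8746 CPM with a member sum of 840.5 CPM. The part of neutrophils in the member sums was not tested.

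At 6 weeks 20 of 34 members remained higher in constitutive knockout microglia, where 6.76% of all genes rose and 5.24% fell. None fell by edgeR or DESeq2, and none had an unadjusted p below 0.05 in that direction. All 20 had also risen at 2 weeks, when 30 members rose. The median log2 change was 1.23 over the members and -0.01 over all genes. The other 10 that had risen at 2 weeks were Ddx58, Ifi35, Ifih1, Ifit1, Ifit2, Ifitm3, Irf9, Isg15, Rsad2 and Trim30a.

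Slfn2 was at 72.7, 103 and 62.5 CPM in knockout mice at 6 weeks, against 24.3, 23.8, 21.6 and 23.9 CPM in controls (log2 change 1.72 ± 0.16, adjusted p = 4.57e-05). Bst2 was at 98.3, 234 and 138 CPM in knockout mice, against 41.6, 58.4, 45.1 and 46.1 CPM in controls (log2 change 1.67 ± 0.26, adjusted p = 0.00321). Oasl2 was at 20.0, 32.4 and 15.0 CPM in knockout mice, against 7.38, 3.06, 4.09 and 4.47 CPM in controls (log2 change 2.20 ± 0.33, adjusted p = 0.00123). Each knockout library lay above each control for these genes, and the library labelled mouse No_380 was the highest. Of all genes tested at 6 weeks, 13.8% had every knockout library above every control. Irf7 was at 10.3, 20.5 and 9.76 CPM in knockout mice, against 3.81, 3.79, 3.77 and 4.15 CPM in controls (log2 change 1.75 ± 0.28, adjusted p = 0.00147). Oas1a was at 8.63, 19.7 and 11.5 CPM in knockout mice, against 1.00, 2.14, 2.88 and 1.92 CPM in controls (log2 change 2.68 ± 0.37, adjusted p = 0.000624). Slfn5 (2.84 ± 0.38), Mx1 (1.29 ± 0.20) and Cmpk2 (2.16 ± 0.42) rose as well, as did Ifi27l2a (3.20 ± 0.56), Ifit3 (1.32 ± 0.34), Usp18 (0.96 ± 0.25) and Stat2 (0.61 ± 0.18).

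Isg15 was at 1.81, 4.74 and 2.86 CPM in knockout mice at 6 weeks, against 1.62, 2.75, 2.41 and 3.32 CPM in controls, and the groups overlapped (log2 change 0.27 ± 0.39, adjusted p = 0.755). Ifitm3 was at 47.3, 78.6 and 13.6 CPM in knockout mice, against 9.81, 12.5, 3.50 and 4.08 CPM in controls; the groups did not overlap, but the spread was wide and the change was not called (2.61 ± 0.72, adjusted p = 0.075). Ifit1 (1.05 ± 0.33, adjusted p = 0.0642) and Irf9 (0.47 ± 0.15, adjusted p = 0.0675) also missed the threshold. Without the library labelled mouse No_380, 11 members rose, with a median of 0.99: Bst2, Cmpk2, Dhx58, Ifi27l2a, Irf7, Mx1, Oas1a, Oasl2, Slfn2, Slfn5 and Zbp1. Neutrophil markers summed to 2647 to 5371 CPM in knockout mice against 897.4 to 1302 CPM in controls, and monocyte markers to 190.3 to 880 CPM against 48.88 to 142.4 CPM; their part in the result was not tested.

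**Figure D4:**
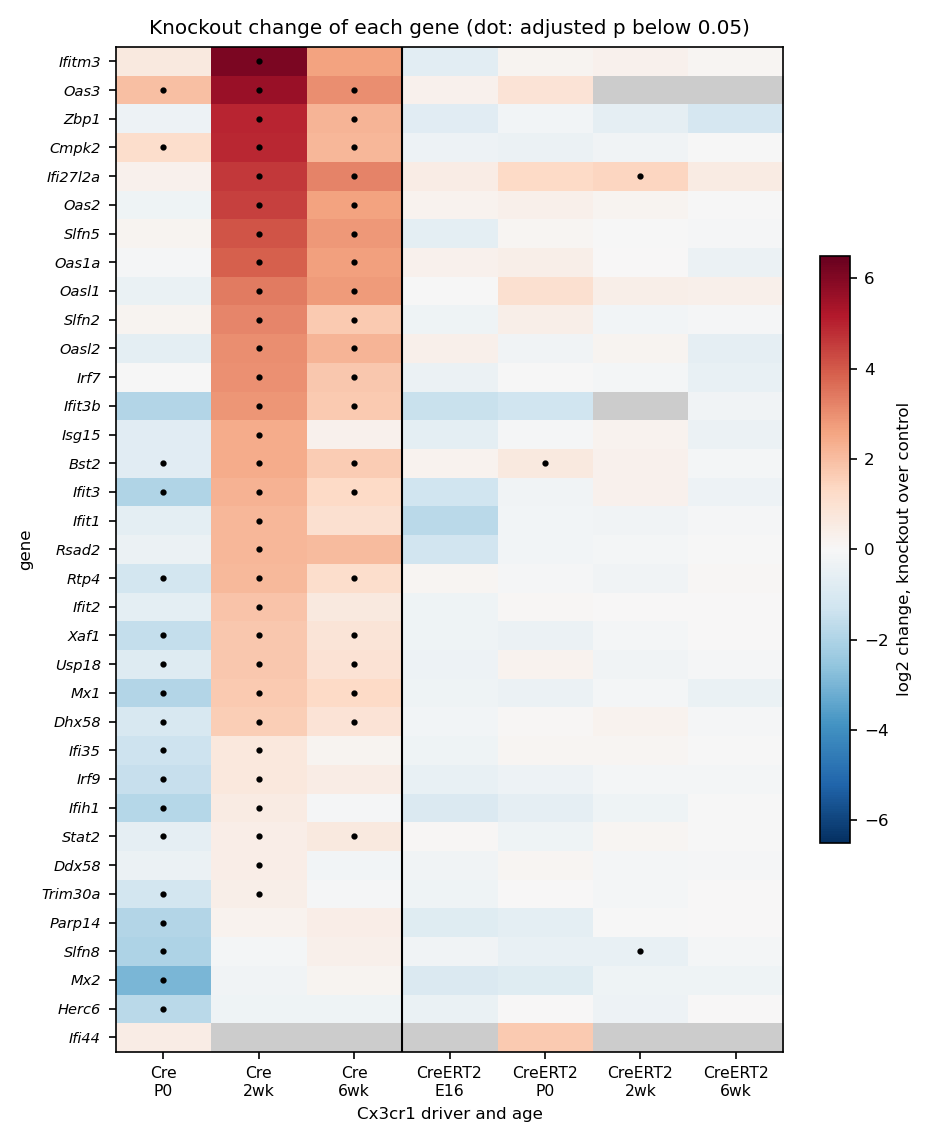
Log2 change, knockout over control, of the 35 genes (down the page) in the 7 knockout comparisons, from edgeR; a dot marks an adjusted p below 0.05 and grey a gene not tested. The constitutive columns hold 16 falls and 2 rises at P0, 30 rises at 2 weeks and 20 at 6 weeks, and the inducible columns hold 3 calls in all.

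The change of the knockout effect with age was tested as an interaction within the constitutive model. Between P0 and 2 weeks it moved upward in 34 of 35 members and downward in none, where 21.7% of all genes moved upward and 9.07% downward. None was downward by DESeq2 or at an unadjusted p below 0.05 in edgeR. Only Ifi44 was not called. Bst2 moved by 3.07 ± 0.24, Zbp1 by 5.23 ± 0.47, Parp14 by 2.10 ± 0.22, Ifitm3 by 5.42 ± 0.54, Xaf1 by 3.23 ± 0.38, Ifi27l2a by 4.22 ± 0.49, Oas2 by 4.65 ± 0.56 and Dhx58 by 2.56 ± 0.32 on the log2 scale. Of the 16 members that fell at P0, 12 rose at 2 weeks: Bst2, Dhx58, Ifi35, Ifih1, Ifit3, Irf9, Mx1, Rtp4, Stat2, Trim30a, Usp18 and Xaf1. At that age 30 of 34 members rose. The fit of all 14 groups did not call Bst2, Rtp4, Stat2 and Usp18 lower at P0. Over all genes, DESeq2-type (RLE) scaling in edgeR set the median at -0.10 in place of 0.11, and the split of calls at 3345 upward and 2314 downward in place of 4336 and 1814. Without the library labelled mouse No_89, 29 members moved upward.

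Between 2 and 6 weeks the constitutive knockout effect moved downward in 7 of 34 members and upward in none by edgeR (1 at an unadjusted p below 0.05), where 9.92% of all genes moved downward and 5.88% upward. The 7 were Zbp1 (-2.76 ± 0.62), Slfn2 (-1.45 ± 0.35), Ddx58 (-0.62 ± 0.17), Isg15 (-2.15 ± 0.59), Cmpk2 (-2.73 ± 0.80), Ifitm3 (-3.53 ± 0.97) and Xaf1 (-0.91 ± 0.28). DESeq2 called 1 member upward. This count rests on single libraries: only Zbp1 was called without the library labelled mouse No_89, 11 members without the library labelled mouse No_380, and 4 without knockout mouse No_379 or No_398 or control mouse No_77 or No_78.

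In the inducible model few members were called at any age. At E16 no member of 34 was called by edgeR, where none of all genes passed (0% in either direction), although 2306 genes, 4 members among them, had an unadjusted p below 0.05. DESeq2 called Ifit1 and Ifit3 lower, and its share of all genes called is not given here. The log2 changes ran from -1.76 for Ifit1 to 0.48 for Ifi27l2a, and 26 of 34 were below 0. Ifit1 was at 4.71, 2.03 and 1.76 CPM in knockout mice, against 9.82, 8.55, 4.41 and 11.3 CPM in controls (-1.76 ± 0.48, adjusted p = 0.201). Ifit3 was at 2.71, 4.25 and 3.35 CPM in knockout mice, against 10.5, 8.32, 4.10 and 8.65 CPM in controls (-1.30 ± 0.42, adjusted p = 0.262). The E16 groups overlapped for both genes. Without the library labelled knockout mouse No_1, whose erythroid markers summed to 13344 CPM and neuronal markers to 3415 CPM, the median log2 change was -0.04 and Ifit1 alone was called lower. Control mouse No_2 at E16 had the highest member sum of its age (1603 CPM), with 7079 CPM of neutrophil and 2045 CPM of monocyte markers.

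At P0 Bst2 rose in inducible knockout microglia, the single call among 35 members, where 6.81% of all genes rose and 3.56% fell. It was at 166, 178, 233 and 195 CPM in knockout mice, against 115, 103 and 154 CPM in controls (log2 change 0.66 ± 0.18, adjusted p = 0.0399). All knockout libraries lay above all controls, which held for 15.7% of all genes tested. The call was lost without knockout mouse No_49, No_53 or No_57 or control mouse No_54 or No_55, and 4 members rose without control mouse No_56, the control with the highest member sum (1840 CPM) and the lowest border macrophage sum (3901 CPM). No member fell by edgeR (2 at an unadjusted p below 0.05) or DESeq2. Without knockout mouse No_53 or control mouse No_55, 1 member fell by edgeR. The widest change that was not called was that of Ifi44, at 5.03, 4.67, 4.92 and 4.13 CPM in knockout mice, against 0.330, 0.550 and 3.52 CPM in controls (1.72 ± 0.64, adjusted p = 0.109); it was called by edgeR in neither of the 2 knockout comparisons in which it passed the filter and is named for that. DESeq2, and edgeR without control mouse No_56, called it higher. Irf9 (-0.35 ± 0.19), Stat2 (-0.29 ± 0.19) and Isg15 (-0.07 ± 0.33) were not called. The median log2 change was -0.04 over the members. Microglial markers summed to 10789 to 14584 CPM in knockout mice at P0, against 23719 to 26955 CPM in controls, and border macrophage markers to 9152 to 16722 CPM against 3901 to 14621 CPM; their part was not tested.

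At 2 weeks Ifi27l2a rose and Slfn8 fell among 32 members tested in the inducible knockout, where 1.11% of all genes rose and 1.13% fell. Ifi27l2a was at 2.68, 7.10, 8.65 and 11.5 CPM in knockout mice, against 2.08, 3.63, 2.46 and 2.53 CPM in controls (log2 change 1.41 ± 0.34, adjusted p = 0.0399). Knockout mouse No_6 lay within the range of the controls. Slfn8 was at 106, 83.4, 83.2 and 74.4 CPM in knockout mice, against 110, 108, 131 and 109 CPM in controls, without overlap (log2 change -0.47 ± 0.12, adjusted p = 0.0458). Of all genes tested, 2.72% lay below the controls in the same way. Both calls were lost when any library other than knockout mouse No_6 was left out. Ifitm3 (0.26 ± 0.43), Isg15 (0.22 ± 0.35) and Bst2 (0.30 ± 0.12) were not called, and Ifi44, Ifit3b and Oas3 were too low to test. At 6 weeks no member of 33 was called by edgeR or by DESeq2, where 0.0492% of all genes rose and 0.0141% fell; 626 genes, but none of the members, had an unadjusted p below 0.05. The log2 changes at 6 weeks ran from -1.10 for Zbp1 to 0.55 for Ifi27l2a, and Ifi44 and Oas3 were not tested.

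Whether the knockout effect differed between the models was tested as an interaction at each shared age. At P0 it was lower in the constitutive model in 11 of 35 members and higher in 1, Cmpk2, where 16.9% of all genes were lower and 14.0% higher. The 11 included Herc6 (-1.71 ± 0.28), Bst2 (-1.35 ± 0.26), Slfn8 (-1.49 ± 0.32), Ifit3 (-1.66 ± 0.53) and Irf9 (-1.09 ± 0.31). With RLE scaling the split of calls over all genes was 3019 higher and 2452 lower, in place of 2692 and 3254. Without inducible control mouse No_56, 18 members were lower.

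At 2 weeks the constitutive effect was higher in 26 of 35 members and lower in none by edgeR (0 at an unadjusted p below 0.05) or DESeq2, where 16.6% of all genes were higher and 14.7% lower. Bst2 differed by 2.10 ± 0.19, Slfn2 by 3.33 ± 0.34, Zbp1 by 5.51 ± 0.70, Ifitm3 by 5.85 ± 0.71, Oas2 by 4.25 ± 0.67, Xaf1 by 1.86 ± 0.31, Oasl2 by 2.85 ± 0.48 and Cmpk2 by 5.05 ± 0.86 on the log2 scale. At 6 weeks it was higher in 9 of 34, where 2.54% of all genes were higher and 2.41% lower. These were Bst2 (1.8 ± 0.28), Slfn2, Slfn5, Oasl2, Oas1a, Irf7, Zbp1, Mx1 and Cmpk2, and 6 were called without the library labelled mouse No_380. The models differ in Cre driver, tamoxifen and time of deletion together, and these cannot be told apart. Within the inducible model no member's effect differed between neighbouring ages by edgeR or DESeq2, with 1, 3 and 1 members at an unadjusted p below 0.05 between E16 and P0, P0 and 2 weeks, and 2 and 6 weeks, of 983, 3517 and 1029 genes; between P0 and 2 weeks 2.67% of all genes moved upward and 1.71% downward, and at the other steps 0% did.

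In control mice the members changed with age. Between P0 and 2 weeks 20 of 34 members fell and 5 rose in the constitutive-model controls (36.6% of all genes fell and 26.7% rose), and 25 of 34 fell and 3 rose in the inducible-model controls (32.7% and 21.9%). The fall was shared by 20 members and the rise by Herc6, Mx2 and Slfn8, in controls that have no library in common. In the constitutive-model controls 3 members rose without control mouse No_83 of 2 weeks or No_69, No_70 or No_71 of P0. There at most 4 rose whichever library was left out. For all genes the shares are given for each set of controls alone, not for both together. The members' median log2 change was -1.16 in the constitutive-model and -1.99 in the inducible-model controls. Over all genes another way of fitting moved the median at this step, to -0.30 and -0.25 in a fit of all 14 groups, and the members' changes are read against that.

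Ifitm3 was at 1.88, 2.19, 3.95 and 2.52 CPM in constitutive-model controls at 2 weeks, against 34.1, 25, 52.1 and 50.9 CPM at P0 (log2 change -3.66 ± 0.31, adjusted p = 3.2e-07). In inducible-model controls it was at 2.61, 2.95, 2.86 and 2.48 CPM at 2 weeks, against 63.4, 68.8 and 80.8 CPM at P0 (-4.48 ± 0.15, adjusted p = 4.68e-09). Every control at 2 weeks lay below every control at P0. Slfn2, Oasl2 and Cmpk2 fell by 2.05 ± 0.12, 3.06 ± 0.32 and 3.79 ± 0.35 in the inducible-model controls, and by 1.35 ± 0.17, 2.77 ± 0.24 and 2.62 ± 0.47 in the constitutive-model controls. Ifi27l2a fell by 2.97 ± 0.31 in the constitutive-model controls and by 4.13 ± 0.45 in the inducible-model controls, Isg15 by 1.77 ± 0.38 and 2.18 ± 0.35, Ifit1 by 1.10 ± 0.46 and 2.5 ± 0.31, and Bst2 by 0.74 ± 0.14 and 1.70 ± 0.14 on the log2 scale, in the same order. Slfn8 rose by 1.02 ± 0.13 and 0.97 ± 0.20. Irf9 was called in neither set of controls at this step. Microglial markers summed to 71882 to 80804 CPM at 2 weeks against 24796 to 28395 CPM at P0 in the constitutive-model controls, border macrophage markers to 584.3 to 805.9 CPM against 2746 to 4030 CPM, and monocyte markers to 19.22 to 70.36 CPM against 190.7 to 297.9 CPM; their part in the change was not tested.

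In the constitutive-model controls, where 26.7% of all genes rose and 36.6% fell between P0 and 2 weeks, 7 of 7 receptor and kinase genes and 12 of 13 sensors and adaptors rose; in the inducible-model controls, where 21.9% rose and 32.7% fell, 4 of 7 and 8 of 13 rose and 1, the kinase Ikbke, fell (-1.68 ± 0.46). Tlr3, the endosomal receptor for double-stranded RNA, rose by 2.41 ± 0.16 and 1.74 ± 0.15, Tlr7 by 0.80 ± 0.13 and 0.65 ± 0.15, and Irf8 by 0.59 ± 0.12 and 0.49 ± 0.11 on the log2 scale in the constitutive-model and inducible-model controls. Of the other interferon-induced genes, 17 of 41 fell and 7 rose in the constitutive-model controls, and 18 of 43 fell and 2 rose in the inducible-model controls.

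From 2 to 6 weeks 10 of 31 members rose and 1, Slfn2, fell in constitutive-model controls (8.80% of all genes rose and 8.93% fell), and 14 of 33 rose and none fell in inducible-model controls (8.13% and 8.98%; 0 fell by DESeq2 and 0 at an unadjusted p below 0.05). Ddx58, Ifi35, Ifih1, Ifitm3, Isg15, Usp18 and Xaf1 rose in both, and the shares of all genes are again for each set alone. Isg15 rose by 1.29 ± 0.38 and 1.23 ± 0.33, and Ifitm3 by 1.46 ± 0.41 and 1.15 ± 0.24, in the constitutive-model and inducible-model controls. The count in the constitutive-model controls was 5 without control mouse No_400 and 6 without control mouse No_78, No_81, No_83 or No_377. In inducible-model controls neutrophil markers summed to 1298 to 1650 CPM at 6 weeks against 490 to 587.4 CPM at 2 weeks. Monocyte markers there summed to 77.91 to 98.69 CPM against 31.87 to 35.84 CPM. In constitutive-model controls the ages overlapped for both (neutrophil sums of 897.4 to 1302 against 457.2 to 1143 CPM). Their part was not tested. From E16 to P0 no member of 35 was called in inducible-model controls by edgeR, where 0.0464% of all genes rose and 0.0116% fell, with 1875 genes, 10 members among them, at an unadjusted p below 0.05; DESeq2 called Bst2 and Rtp4 higher, and Oas1a, Oasl2 and Slfn2 rose without control mouse No_2.

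**Figure D5:**
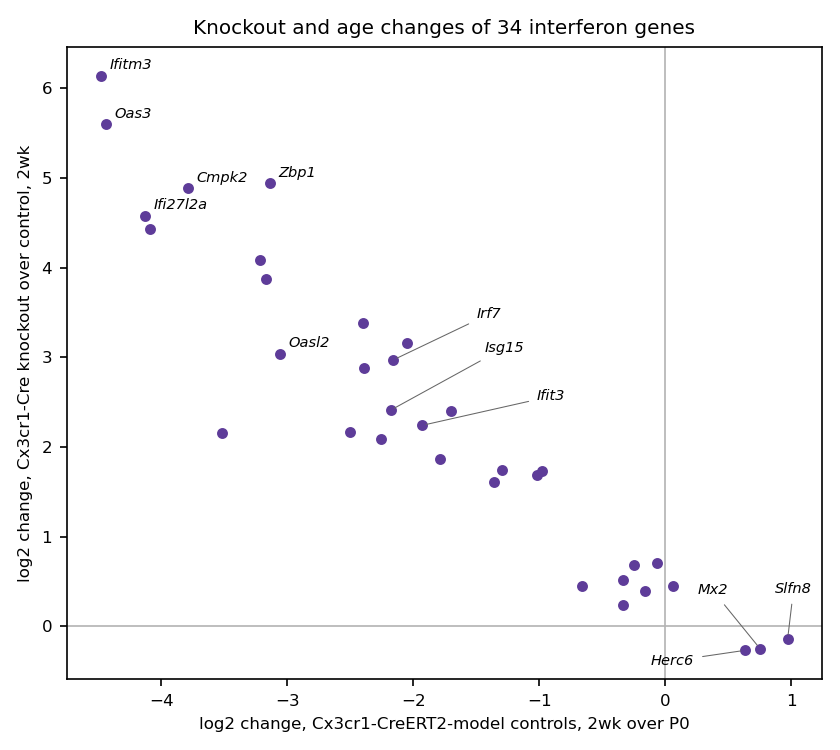
Log2 change of 34 members in constitutive knockout over control microglia at 2 weeks (vertical axis) against the log2 change of inducible-model controls from P0 to 2 weeks (horizontal axis); each point is a gene. Members that are lowest in controls at 2 weeks relative to P0, such as Ifitm3, lie highest in the knockout, and Slfn8, Herc6 and Mx2 lie at the other end.

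Set side by side, in comparisons with no library in common, members that had fallen more in inducible-model controls by 2 weeks were those higher in the constitutive knockout at 2 weeks: across 34 genes Pearson's r was -0.94 and Spearman's rho -0.93. Across 14407 genes tested in both it was -0.72 and -0.69. At 6 weeks the values were -0.90 and -0.90 over the members and -0.57 and -0.43 over 13995 genes. These describe genes, which are not independent replicates, and all points of an axis share the same libraries. Ifi27l2a in knockout mice at 2 weeks (108 and 76.3 CPM) stood above untreated P0 controls (24.4 to 55.6 CPM), and Isg15 (4.75 and 5.88 CPM) overlapped them (3.53 to 5.02 CPM).

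Controls of the inducible model, exposed to tamoxifen before birth, were set against the untreated controls of the constitutive model. At P0 8 of 35 members were higher and none lower in the exposed mice by edgeR, where 2.59% of all genes were higher and 1.59% lower. None was lower at an unadjusted p below 0.05 in edgeR. DESeq2 called none lower and 16 higher, and its share of all genes called is not given here. The 8 were Oas2 (1.78 ± 0.27), Stat2 (0.91 ± 0.14), Oas1a (1.24 ± 0.21), Slfn5 (1.26 ± 0.22), Slfn2 (0.82 ± 0.16), Ddx58 (0.90 ± 0.20), Parp14 (0.82 ± 0.18) and Bst2 (0.75 ± 0.17). Oas2 was at 63.2, 33.1 and 30.3 CPM in exposed mice, against 13.2, 13.2, 15.3 and 12.7 CPM in untreated mice, without overlap. No member was called without exposed mouse No_54 or untreated mouse No_71 or No_74, 2 without exposed mouse No_55, and 5 without untreated mouse No_70. At 2 weeks Slfn8 alone was higher (0.54 ± 0.09, adjusted p = 0.00433; 0.816% of all genes were higher and 0.961% lower). At 6 weeks Slfn2 alone was higher (1.01 ± 0.17, adjusted p = 0.0226; 0.0994% and 0.121%), a call lost without untreated mouse No_376, No_377 or No_400 or exposed mouse No_5. At P0 border macrophage markers summed to 3901 to 14621 CPM in exposed mice against 2746 to 4030 CPM in untreated mice, neutrophil markers to 1122 to 3762 CPM against 786.5 to 1696 CPM, and monocyte markers to 269.3 to 572.2 CPM against 190.7 to 297.9 CPM; their part was not tested. Tamoxifen and cohort cannot be told apart here.

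The rest of the pathway was read from lists of ligands, receptors, factors, sensors, regulators and further induced genes. Of 21 interferon ligand genes, 14 had no count in any library and none was high enough to test. Ifnb1 had 20 counts in 8 of the 50 libraries and Ifnk had 41 counts in 19. At this depth a change of the ligands was not detectable.

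Receptor and kinase genes changed in the constitutive knockout. Marker sums differed as well. Microglial markers summed to 1653 to 4934 CPM in knockout mice at P0, against 24796 to 28395 CPM in controls. Neutrophil markers summed to 17907 and 50621 CPM in knockout mice at 2 weeks, against 457.2 to 1143 CPM in controls. Their part in the changes of this and the other pathway lists was not tested. At P0 6 of 7 fell, where 20.2% of all genes fell, among them Ifngr1 (-2.16), Ifnar2 (-1.24), Ifngr2 (-1.12) and Ifnar1 (-0.65). At 2 weeks 3 rose and 1 fell, where 24.4% of all genes rose and 17.8% fell. Ifnar1, a chain of the type I receptor, was at 378 and 350 CPM in knockout mice at 2 weeks, against 178, 181, 159 and 187 CPM in controls (log2 change 1.04), Ifnar2 rose by 0.78 and Ifngr2 by 0.33, and Ifngr1, a chain of the interferon-gamma receptor, fell by 1.10 on the log2 scale. At 6 weeks Ifnar1 and Ifnar2 rose by 1.06 and 0.56, where 6.76% of all genes rose. Among the IRF factors, Irf8 (-1.87), a factor of microglial identity, Irf5 (-1.51) and Irf2 (-1.13) fell at P0.

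Sensors and adaptors, the proteins that detect nucleic acids and start interferon production, fell in 11 of 13 genes at P0, where 20.2% of all genes fell and 21.4% rose, with the endosomal receptors Tlr7 (-3.50) and Tlr3 (-2.50), the adaptor STING, listed as Tmem173 (-1.90), and the kinase Tbk1 (-1.28). Ikbke, a relative of Tbk1, rose. At 2 weeks, where 24.4% of all genes rose and 17.8% fell, Ikbke alone rose (3.20) and 5 fell, among them Tlr3 (-2.26), Tlr7 (-1.03) and Tmem173 (-0.94), and at 6 weeks, where 5.24% of all genes fell, Tlr3 fell (-0.88). Of 10 negative regulators, Ptpn6 (-1.52) and Pias1 (-0.62) fell at P0. At 2 weeks 5 rose and Socs3, an inhibitor of cytokine receptors, fell by 1.18; Samhd1, which destroys nucleotides and restrains the interferon response, was at 260 and 437 CPM in knockout mice at 2 weeks, against 75.7, 65.5, 82.0 and 68.4 CPM in controls (2.28), and the RNase H2 subunits Rnaseh2b (1.45) and Rnaseh2a (1.00) rose. Samhd1 rose by 0.51 at 6 weeks.

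Of 44 other interferon-induced genes, 23 fell and 4 rose in the constitutive knockout at P0 (20.2% of all genes fell and 21.4% rose), 31 of 43 rose and 1 fell at 2 weeks (24.4% and 17.8%), and 16 of 43 rose at 6 weeks (6.76%). Those that fell most clearly at P0 were Dtx3l (-1.82), Gbp7 (-2.19), Parp9 (-2.02) and Lgals9 (-1.77). Sp100, a nuclear body protein, was at 148 and 221 CPM in knockout mice at 2 weeks, against 8.14, 7.6, 6.53 and 10.8 CPM in controls (4.51). The chemokine Ccl12 was at 491 and 335 CPM in knockout mice, against 84.0, 77.5, 79.0 and 67.9 CPM in controls (2.40). The DNA-binding Ifi203 (9.09) and the membrane protein Ifitm2 (5.89) rose as well. At 6 weeks Ifi204, a relative of Ifi203, was at 17.8, 32.8 and 32.3 CPM in knockout mice, against 1.88, 3.00, 3.04 and 2.84 CPM in controls (3.31), with Ifi207 (4.38), Sp100 (2.20) and Ccl12 (1.72). In the inducible knockout the list genes called were Unc93b1 (-1.48), Tlr3 (-1.51), Igtp (-0.62), Rnaseh2a (0.57) and Ube2l6 (0.79) at P0, and Samhd1 (-0.42) and Parp12 (-0.38) at 2 weeks, with none by edgeR at E16 and 6 weeks.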

How the data were processed

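Microglia were sorted from mouse brain and their RNA sequenced. Per the submitters' processing notes, reads were handled with CASAVA 1.8.2, STAR 2.5.2b, featureCounts 1.5.1 (Subread) and limma 3.28.21 on GRCm38; the annotation release was not given in the sources used here. The deposited table holds read counts per gene, not normalized, with a gene length; CPM values were deposited by the authors as well, and equal the count over the library total to within 4.9e-06. Levels here are these deposited CPM values, and lengths served for levels per kilobase. Tests, and member sums with TMM scaling over all libraries, were computed from the counts. Libraries of a group carry different numbers in their titles. These were taken as different animals and counted as replicates.

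Each comparison was fitted on its own groups with edgeR 4.0.16 in R 4.3.3 (TMM scaling, filterByExpr, robust glmQLFit, glmQLFTest), with Benjamini-Hochberg adjustment over all genes tested and a threshold of 0.05. The fit was tested on simulated counts. Errors of log2 changes are SE from the test. Alternatives were DESeq2 1.42.0, RLE scaling, no filter on low counts, a fit of all 14 groups and each library left out. Of each comparison, 11 fixed members and up to 8 called members per direction with the smallest adjusted p are named, and up to 4 genes per pathway list. The 35 members and the lists were chosen with earlier results of these data known, so no list was tested as a set. Counts of the STAT and IRF list are not reported here.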

Additional observations from a re-analysis of the deposited data

Results flagged for a closer look

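Among 108 groups of values tested for a library standing apart, 2 were singled out, where chance singles out about 1 in 20. Ifit3 in constitutive-model control mouse No_77 at 2 weeks was at 2.949 CPM, above the other 3 controls, and Irf7 in constitutive-model control mouse No_400 at 6 weeks was at 4.154 CPM, above its group. Both remained below the constitutive knockout libraries of their age.

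The knockout effect differed between the models by the interaction test in edgeR. At P0 11 of 35 members were lower and 1 higher, where 16.9% of all genes were lower and 14.0% higher. Among these 12 were Ifit3 (-1.66), Irf9 (-1.09) and Bst2 (-1.35). At 2 weeks 26 differed, among them Isg15 (2.18), Ifit1 (2.37), Ifit3 (1.94), Irf7 (3.09), Irf9 (0.81), Bst2 (2.10), Ifitm3 (5.85), Ifi27l2a (3.14), Usp18 (1.94) and Oasl2 (2.85). All 26 were higher, where 16.6% of all genes were higher and 14.7% lower. At 6 weeks 9 differed, among them Irf7 (2.23), Bst2 (1.8) and Oasl2 (2.76). All 9 were higher, where 2.54% of all genes were higher and 2.41% lower. The values in parentheses are log2 differences, constitutive minus inducible.

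The constitutive knockout effect differed between ages. From P0 to 2 weeks 34 members moved, among them Isg15 (3.09), Ifit1 (2.78), Ifit3 (4.12), Irf7 (2.95), Irf9 (2.10), Stat2 (0.94), Bst2 (3.07), Ifitm3 (5.42), Ifi27l2a (4.22), Usp18 (2.52) and Oasl2 (3.60). All 34 moved upward, where 21.7% of all genes moved upward and 9.07% downward. From 2 to 6 weeks 7 moved, among them Isg15 (-2.15) and Ifitm3 (-3.53). All 7 moved downward, where 9.92% of all genes moved downward and 5.88% upward. The values in parentheses are log2 differences, later age minus earlier. Marker sums also differed between these groups, not always in the direction of the members, and their part was not tested.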

How the results depend on the processing

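Under the alternatives run, no called log2 change of a named member changed sign, although RLE scaling turned the sign of some small medians over all genes, such as that of the change between P0 and 2 weeks in the constitutive effect (-0.10 in place of 0.11). DESeq2 gave 2 members lower in the inducible knockout at E16, 2 higher in it at P0, 14 higher in the constitutive than the inducible effect at 6 weeks, 1 upward in the constitutive effect between 2 and 6 weeks, 2 higher in inducible-model controls at P0 against E16, and 16 and 3 higher in tamoxifen-exposed controls at P0 and 6 weeks. The fit of all 14 groups gave 1 member higher in the constitutive knockout at P0, 4 lower in the inducible knockout at E16, 0 higher and 2 lower in it at P0, 0 higher and 0 lower in it at 2 weeks, 3 higher in constitutive-model controls at 2 weeks against P0, 3 higher and 0 lower in them at 6 weeks against 2 weeks, 7 higher in inducible-model controls at that step, and 2, 0 and 0 higher in exposed controls at P0, 2 weeks and 6 weeks. RLE scaling gave 3 members higher in constitutive-model controls at 2 weeks against P0. With no filter on low counts, 2 members moved downward in the constitutive effect between 2 and 6 weeks, and 2 were higher in exposed controls at 6 weeks. With TMM scaling over all libraries the mean member sum was 633.8 and 748.5 CPM in constitutive-model controls at 2 and 6 weeks, and 721.5 and 930.9 CPM in inducible-model controls. The cause of these shifts was not tested. For the fits in this paragraph the share of all genes called is not given, so these counts cannot be read as particular to the members.

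Leaving out each library in turn gave ranges of called members. For the constitutive knockout they were 1 to 3 higher and 15 to 18 lower at P0, 23 to 29 higher and 0 to 1 lower at 2 weeks, and 11 to 18 higher at 6 weeks. For the inducible knockout they were 0 to 1 lower at E16, 0 to 4 higher and 0 to 1 lower at P0, and 0 to 2 higher and 0 to 1 lower at 2 weeks. For the difference between models they were 1 to 2 higher and 8 to 18 lower at P0, 21 to 29 higher at 2 weeks and 6 to 12 higher at 6 weeks. For the constitutive effect they were 29 to 34 upward between P0 and 2 weeks, and 0 to 1 upward and 1 to 11 downward between 2 and 6 weeks; for the inducible effect they were 0 to 1 upward between P0 and 2 weeks. For controls they were 0 to 3 higher at P0 against E16; 3 to 4 higher and 19 to 23 lower, and 2 to 3 higher and 24 to 27 lower, at 2 weeks against P0 in the constitutive and inducible models; 5 to 9 higher and 1 to 2 lower, and 10 to 15 higher, at 6 weeks against 2 weeks; and 0 to 7, 1 to 1 and 0 to 1 higher in exposed controls at P0, 2 weeks and 6 weeks.

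No paired analysis was possible because the numbers in the titles were taken as different animals and the groups compared share fewer than 2 of them. Depth limits Ifi44, Ifit3b, Oas3 and the ligands.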
